A study of Saccharomyces cerevisiae with 12 samples.

Results

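Budding yeast cells that lack GCN2 were examined for what rises and what falls in their mRNA after treatment with the reducing agent DTT. The Δgcn2 cells were measured on 3 of the 12 two-color arrays of the series, chosen by their titles, and the other 9 arrays hold WT, Δgcn4, and Δire1 cells, 3 arrays each. Every array set RNA of cells treated with 2 mM DTT for 30 min against RNA of untreated cells of the same strain, so that each value is a log2 ratio of treated over untreated for 1 of 6024 array elements. In the Δgcn2 strain the gene is replaced by the his5+ marker, as GCN4 is in the Δgcn4 strain, and IRE1 is replaced by TRP1 in the Δire1 strain. All 4 strains derive from 1 haploid parent of mating type a with ura3, leu2, his3, trp1, ade2, and can1 mutations, and were grown to mid-log phase in rich medium. Each deletion is 1 strain, so a further mutation in that strain cannot be told apart from the deletion.

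DTT keeps proteins in the ER from forming disulfide bonds, and the unfolded protein response (UPR) answers with more chaperones and folding enzymes. In yeast the sensor Ire1 cuts the HAC1 mRNA, the tRNA ligase Trl1 joins the pieces, and the Hac1 protein made from the spliced mRNA activates the target promoters. Gcn2 is a kinase best known for sensing uncharged tRNA during amino acid starvation. It phosphorylates eIF2α, which lowers general translation and raises translation of the transcription factor Gcn4, the activator of the genes of amino acid synthesis. In this series the Δgcn2 cells bear on whether UPR targets also need Gcn4 and Gcn2.

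The 9 promoter stretches that follow are shown because the study used them as a probe or as candidate motifs for reporters, and because their genes give a first view of the UPR in Δgcn2. The arrays measure the genes and not the stretches, so that they do not show which of these motifs is active. They are written 5′ to 3′ with the motif in capitals and 8 bases on each side, and come from the oligonucleotides of the study. KAR2, chromosome X, carries the classical UPR element, and the other 8 stretches are the promoter contexts from which the study made its reporters.
KAR2: gaactggaCAGCGTGtcgaaaaa
ERO1: atacggagTACGTGtcataaaa
BIR1: ccttctgtTAGTGCagagtctc
EDC1: ccgggagcGGTTCTGGcgtgttta
DOG1: ttcttaacGACGCGCAaagaaaaa
TRK2: gcctccagCACAATttcacaac
LHS1: gctaattaGGCGCGCGcctcaaat
OPI3: caggtcttCCACGTGGaactgcca
DHH1: taagaaaaAGGACAACacaatctt
Of these 9 stretches, searched on both strands, 2 hold ACGTG (ERO1 and OPI3) and 1 holds CAGNGTG (KAR2). A match is a description of the letters and does not show that a factor binds there.

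All 9 genes rose after DTT in Δgcn2, where 25.2% of all elements did (limma, adjusted p under 0.05). The study had picked their promoters as those of UPR targets, so this count is a description. KAR2, the Hsp70 chaperone of the ER lumen, gave log2 ratios of 1.83, 1.82 and 1.82 on the 3 arrays. DOG1, a sugar phosphatase, gave 2.17, 2.33 and 2.65, and LHS1, the partner of Kar2 that exchanges its nucleotide, gave 1.36, 1.70 and 1.56. ERO1, the oxidase that feeds disulfide bonds to the ER, gave 1.38, 1.20 and 1.34. Every one of these ratios was above 1, and the 3 KAR2 values lay closer together than those of the other genes of this set. The mean of OPI3, a methyltransferase of phosphatidylcholine synthesis, was 1.73 ± 0.12 (standard error, SE, from the fit, n = 3 arrays for each mean). The means were 1.54 ± 0.11 for the potassium transporter gene TRK2, 1.40 ± 0.13 for BIR1, which acts in chromosome segregation, 1.11 ± 0.14 for EDC1, and 1.10 ± 0.18 for DHH1, both of mRNA decapping. The difference of DHH1 from WT was −0.69 (95% interval −1.21 to −0.162), which did not pass the test (adjusted p = 0.0678). It did with the replicate number as a block (adjusted p = 0.0372), with array weights (0.0201), and with the arrays of these 2 strains alone (0.00827). In Δire1 the means of the same 9 genes ran from −0.80 (EDC1) to 0.85 (KAR2).

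The arrays of Δgcn2 were the most alike of any strain. Across elements, which do not count as replicates, pairs of Δgcn2 arrays correlated at 0.932 to 0.943, against 0.853 to 0.876 within WT, 0.729 to 0.906 within Δgcn4, and 0.642 to 0.846 within Δire1. The spread of the response was also wide in Δgcn2, with an SD of the mean log2 ratios of 0.649 over all elements, 0.566 in WT, 0.513 in Δgcn4, and 0.44 in Δire1. The medians of the 3 Δgcn2 arrays were −0.111, −0.148, and −0.056, and the deposited values were used without centering. The values hold no signals of the separate channels, so background and brightness of a spot were not analysed here. Each mean rests on 3 arrays, but its SE comes from the spread of the element within all strains together, moderated across elements. The SE of an element is thus the same in every strain.

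In Δgcn2, 1520 elements (25.2% of 6024) rose and 2280 (37.8%) fell after DTT, called with limma at an adjusted p under 0.05. At an unadjusted p under 0.05 the counts were 1600 and 2388. With each array centered on its median, which shifts the median over all elements from −0.109 to −0.00383, the counts were 1910 higher and 1856 lower. The share of the calls that were higher thus went from 40.0% to 50.7%. Of the called elements, 293 rose and 447 fell by at least 1 on the log2 scale, that is 2-fold or more. Only 25 rises and 13 falls reached 2 on this scale. The sign was the same on all 3 arrays for 1515 of the rises and 2276 of the falls. The called elements include 145 higher and 211 lower that carry no gene name here.

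The same test called 1108 elements (18.4%) higher and 2352 (39.0%) lower in WT, 949 (15.8%) and 2329 (38.7%) in Δgcn4, and 733 (12.2%) and 2145 (35.6%) in Δire1. The Δgcn2 and WT arrays are separate samples, but their replicate numbers pair them, as given below. They had 831 higher elements in common, 54.7% of those in Δgcn2 and 75.0% of those in WT, and 1767 lower elements, 77.5% and 75.1%. A further 52 elements were higher in Δgcn2 and lower in WT, and 33 were lower in Δgcn2 and higher in WT. For all of these 52 and 33 the difference between the strains passed the test, which calls of opposite sign largely fix in advance.

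The strongest rise was that of COS4, a subtelomeric gene whose family acts in sorting membrane proteins to the vacuole. Its log2 ratios in Δgcn2 were 5.23, 5.36 and 5.47, with a mean of 5.35 ± 0.17 (adjusted p = 9.08e-12 in limma), about 40.8-fold. COS4 is nearly identical to other COS genes, so the signal may be shared among them. The next were TIS11, which binds and destabilizes mRNA during iron shortage, with 3.36, 3.45 and 3.59, and ULI1, a gene known for its UPR induction, with 2.70, 3.40 and 4.05. No value of COS4 overlapped those of the other 2, while the ranges of TIS11 and ULI1 overlapped. RTA1, of the lipid-translocating exporter family, had a mean of 3.34 ± 0.27, and ROQ1, a regulator of stress-induced protein degradation, 3.16 ± 0.16. INO1 (2.64 ± 0.12) makes inositol phosphate, the first step of inositol lipid synthesis, and GSC2 (2.52 ± 0.23) is a glucan synthase of the cell wall. SSA4, a cytosolic Hsp70 induced by heat, had 3.38, 2.60 and 2.46, with its first array above the other 2. YET2 (2.61), a relative of a mammalian ER membrane protein, the RNA-binding protein gene PUF4 (2.32), the hexose transporter gene HXT5 (2.31), and YOR289W (2.67), YPL247C (2.55), and YFL066C (2.43), of which YFL066C is in a repeated subtelomeric element, made up the 15 strongest rises with DOG1.

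These 15 genes differed in their response in Δire1. The mean log2 ratio in Δire1 was 0.18 for COS4, −0.11 for ULI1, 0.07 for YPL247C, and −0.53 for PUF4. TIS11 with 1.94, RTA1 with 1.55, ROQ1 with 2.06, GSC2 with 1.38, and SSA4 with 2.76 rose in Δire1 as well. So did, with smaller means, YFL066C (0.915), YOR289W (0.865), DOG1 (0.74), YET2 (0.73), and INO1 (0.39), while HXT5 (0.36) was not called there. All of these genes that rose in Δire1, except SSA4, were higher in Δgcn2 by the test of the difference. For SSA4 the difference of Δgcn2 from Δire1 was 0.05 ± 0.32 (adjusted p = 0.913), with a 95% interval of −0.63 to 0.74.

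**Figure D1:**
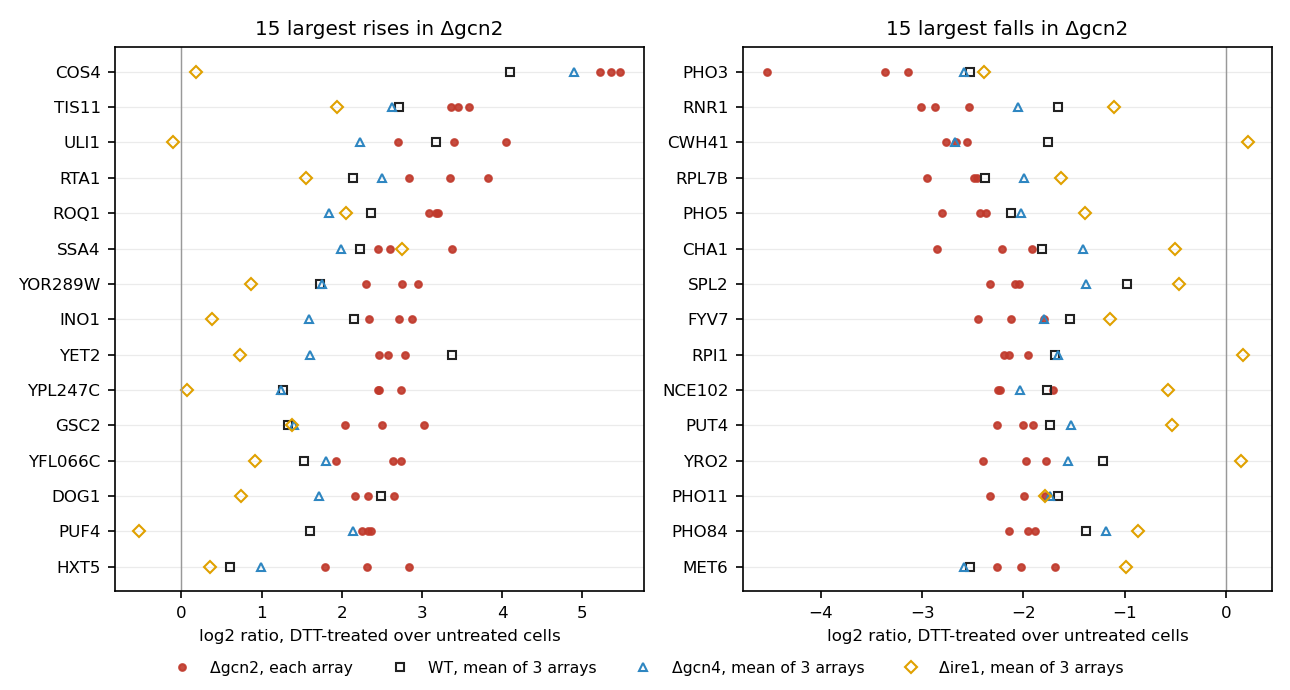
Log2 ratios after DTT (x axis) of the 15 strongest rises (left) and falls (right) in Δgcn2, with 1 row for each gene. Red points are the 3 Δgcn2 arrays, and open symbols are the means of 3 arrays in WT, Δgcn4, and Δire1. COS4 stands at the far right with all 3 Δgcn2 values above 5, and CWH41, RPI1, and YRO2 have Δire1 means just above 0.

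The strongest fall was that of PHO3, an acid phosphatase gene, with log2 ratios of −3.14, −3.37 and −4.53, the third array well below the others, and a mean of −3.68 ± 0.33 (adjusted p = 2.09e-07 in limma). PHO5 (−2.53 ± 0.15) and PHO11 (−2.04 ± 0.14) encode other acid phosphatases, PHO84 (−1.99 ± 0.12) the high-affinity phosphate transporter, and SPL2 (−2.15 ± 0.15) a regulator of phosphate uptake. PHO5 and PHO11 belong to a family of similar sequence. RNR1, the large subunit of ribonucleotide reductase, had −2.54, −3.01 and −2.88. CWH41, which trims the first glucose from N-linked glycans, had −2.77, −2.56 and −2.67, 3 values within a narrow range. The 15 strongest falls also held RPL7B (−2.63) of the large ribosomal subunit, CHA1 (−2.33) of serine and threonine breakdown, FYV7 (−2.12) of rRNA processing, the regulator RPI1 (−2.10), NCE102 (−2.06) of the plasma membrane, the proline permease gene PUT4 (−2.06), YRO2 (−2.05), and MET6 (−1.99), methionine synthase.

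Of these falls, 3 had means above 0 in Δire1. The mean of CWH41 was 0.22 in Δire1, −1.76 in WT, and −2.68 in Δgcn4, and the difference of Δgcn2 from Δire1 was −2.88 ± 0.27 (adjusted p = 3.29e-06). RPI1 differed by −2.27 ± 0.26 (adjusted p = 2.64e-05) and YRO2 by −2.20 ± 0.28 (adjusted p = 5.30e-05). PHO11 did not pass this test, with a difference of −0.26 ± 0.20 (adjusted p = 0.343, 95% interval −0.685 to 0.172).

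The mRNA of the UPR regulators themselves moved in both directions. HAC1 gave 2.25, 2.09 and 2.26 in Δgcn2, with a mean of 2.20 ± 0.28 (adjusted p = 5.77e-06), against means of 1.10 in WT, 1.06 in Δgcn4, and 0.07 in Δire1. All 3 Δgcn2 values of HAC1 were above 2 and all 3 WT values, 1.16, 1.11 and 1.03, below them. The difference from WT was 1.10 ± 0.40 (95% interval 0.262 to 1.94) and did not pass the test (adjusted p = 0.0669, and 0.0707 with the replicate number as a block). It did with array weights (adjusted p = 0.00774) and with the arrays of these 2 strains alone (0.000316). TRL1, the ligase gene, fell with −1.06, −0.84 and −0.83, a difference of −0.54 ± 0.16 from WT (adjusted p = 0.0293, and 0.0656 to 0.106 on leaving out any 1 array but WT replicate 2). GCN4 fell with −0.55, −0.86 and −0.57, and in WT its mean was −0.59. SUI2, which encodes the eIF2α that Gcn2 phosphorylates, fell with −0.56, −0.54 and −0.56. GCN1 and GCN20, partners needed to activate Gcn2, had means of −0.23 ± 0.14 and −0.03 ± 0.09 and did not pass the test. GCN1 did with array weights (adjusted p = 0.0326) and with the Δgcn2 arrays alone (0.0486). The GCN2 element itself gave 0.22, 0.38 and 0.92, but both channels hold RNA of cells without the gene, so its ratio does not check the label, and without the third array its adjusted p was 0.127.

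The chaperone system of the ER rose in part. Of 12 measured members, 6 rose (50.0%) and 2 fell (16.7%), where 25.2% of all elements rose and 37.8% fell. The median was 0.647, against −0.109 over all elements. The rising members were KAR2, its nucleotide exchange factors SIL1 with 2.11, 1.93 and 2.26 and LHS1, its J-domain partners JEM1 with 2.04, 1.58 and 2.05 and SCJ1 with 1.15, 1.04 and 1.46, and the prolyl isomerase gene FPR2 with 1.05, 0.85 and 1.02. Among these 6, the ranges of FPR2 and SIL1 did not overlap. The fall of ERJ5, another J-domain protein of the ER lumen, stood apart with −0.96, −0.80 and −0.25, 3 values below 0. CNE1, the yeast calnexin, fell with a mean of −0.26 ± 0.10, a call lost without the first or second Δgcn2 array (adjusted p = 0.174 and 0.0739) and with centered arrays (0.147). SEC63 (0.32 ± 0.14, adjusted p = 0.0508), ROT1 (0.15 ± 0.10), CPR5 (−0.06 ± 0.09), and SHR3 (−0.13 ± 0.09) did not pass the test. SEC63 did with the replicate number as a block (0.0473), robust moderation of variances (0.0496), and each array scaled (0.0294). It also did with array weights (0.0125), centered arrays (0.00934), and the Δgcn2 arrays alone (0.00613). ROT1 passed with centered arrays (0.0313).

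Against WT, the 2 exchange factors rose less in Δgcn2. The difference was −1.09 ± 0.23 for LHS1 (adjusted p = 0.0073) and −0.79 ± 0.17 for SIL1 (adjusted p = 0.00774). The WT values were 2.68, 2.25 and 2.96 for LHS1 and 2.95, 2.80 and 2.91 for SIL1, all above the Δgcn2 values. ERJ5 was −1.47 ± 0.18 from WT (adjusted p = 0.000219), where it gave 0.60, 0.85 and 0.96. For KAR2 the difference was −0.14 ± 0.15 (adjusted p = 0.56), with a 95% interval of −0.458 to 0.18.

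The enzymes of disulfide bonds rose more evenly, with 6 of 7 higher (85.7%), none lower, and a median of 0.822. Over all elements 25.2% rose and 37.8% fell, with a median of −0.109. MPD1, a protein disulfide isomerase, gave 1.47, 1.29 and 1.51. Its relatives EUG1 gave 0.79, 1.08 and 1.15, PDI1, the main isomerase, 0.61, 0.97 and 0.89, and MPD2 0.39, 0.77 and 0.65. MPD1 and ERO1 had every value above 1, while those of PDI1 and MPD2 were all below 1. The oxidase gene ERV2 had 0.47 ± 0.19 (adjusted p = 0.0357, but 0.0825 to 0.124 on leaving out any 1 Δgcn2 array), and EPS1 with 0.06 ± 0.10 did not pass. EUG1, ERO1, and MPD1 rose less than in WT, with differences of −0.88 ± 0.18 (adjusted p = 0.00598), −0.65 ± 0.13 (0.00486), and −0.51 ± 0.15 (0.0315), and MPD2 rose more, with 0.50 ± 0.16 (0.0389). The calls of MPD1 and MPD2 were lost on leaving out single arrays of either strain, with an adjusted p of up to 0.118 and 0.169. In Δire1 the median of these 7 genes was −0.167.

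The protein O-mannosyltransferases, which attach mannose to serine and threonine in the ER, had the lowest median of these 3 folding groups. Of 7 members, 2 rose (28.6%) and 1 fell (14.3%) in Δgcn2, where 25.2% of all elements rose and 37.8% fell. Their median was −0.0693, or 0.0358 with centered arrays, while the WT median was 0.99. PMT3 gave 0.87, 1.82 and 2.02, the first array far below the others. PMT5 rose with 0.27, 0.40 and 0.72, and PMT4 fell with −0.45, −0.51 and −0.56. PMT1 with −0.25, −0.21 and −0.07 and PMT2 with −0.17, −0.06 and 0.02 had all values near 0. The corresponding WT values were 1.03, 0.94 and 1.44 for PMT1 and 1.10, 1.26 and 1.25 for PMT2. The differences were −1.31 ± 0.16 for PMT1 (adjusted p = 0.000247), −1.27 ± 0.15 for PMT2 (adjusted p = 0.000221), and −0.53 ± 0.16 for PMT5 (adjusted p = 0.0331, and up to 0.127 on leaving out 1 array). Against Δgcn4, where PMT1 had a mean of −0.69 and PMT2 of −0.06, no member passed the test, which 4.45% of all elements did as higher and 1.88% as lower. PMT6 (0.08 ± 0.12) and PMT7 (−0.10 ± 0.12) were not called in Δgcn2.

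**Figure D2:**
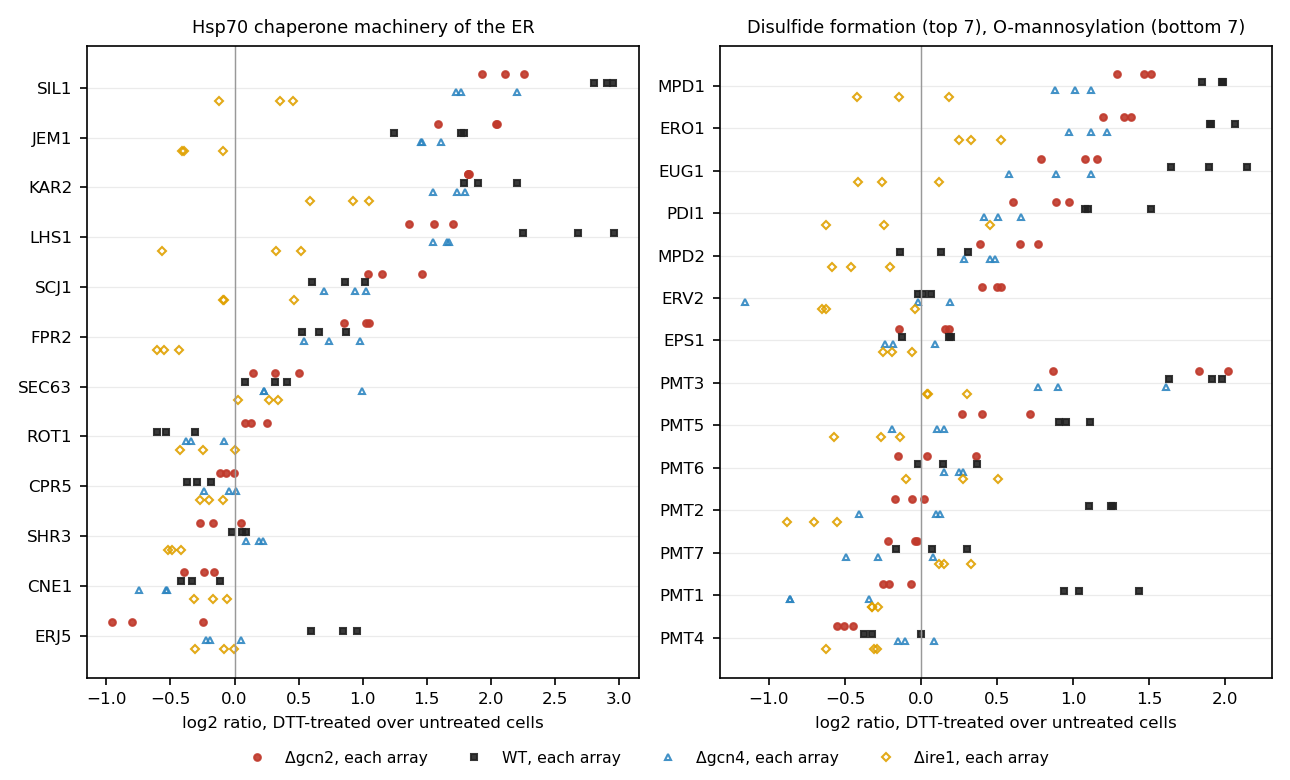
Log2 ratios after DTT (x axis) of the 12 chaperone genes (left) and the 7 disulfide and 7 O-mannosylation genes (right), 1 row for each gene, with each array of the 4 strains as a point. For PMT1, PMT2, and ERJ5 the 3 WT arrays lie right of all arrays of the other strains, and for SIL1 and LHS1 the Δgcn2 arrays lie left of WT and right of Δire1.

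Among genes of ER-associated degradation, which removes misfolded proteins, 10 of 19 rose (52.6%) and 2 fell (10.5%), with a median of 0.465. Over all elements 25.2% rose and 37.8% fell. DER1, a channel component, had 1.65, 1.71 and 1.76, HRD3, a subunit of the ubiquitin ligase, 1.78, 1.55 and 1.81, and DFM1, a relative of DER1, 1.32, 1.47 and 1.50. All 9 of these values were above 1. MNL1, which trims mannose from misfolded glycoproteins, fell with a mean of −0.59 ± 0.09. In N-glycosylation 14 of 29 rose and 4 fell, with ALG3 (1.58 ± 0.21), ALG7 (1.27 ± 0.10), and ALG6 (0.99 ± 0.12), enzymes of the glycan precursor, at the top and CWH41 at the bottom.

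Transport between ER and Golgi was mixed. In the COPII list, of vesicles that leave the ER, 13 of 27 rose (48.1%) and 8 fell (29.6%), against 25.2% and 37.8% of all elements. Without the first Δgcn2 array or with centered arrays 5 fell. SEC23, of the inner coat, had 1.50, 1.47 and 1.53, and its cargo-binding partner SFB2 0.89, 1.22 and 1.66. BET1, which acts in vesicle fusion, fell with −0.83 ± 0.10, and ERV25, of a cargo receptor, with −0.64 ± 0.12. In the COPI list, of vesicles that return, 7 of 16 rose and 4 fell, and 2 fell without the second Δgcn2 array or with arrays scaled to one spread. RET2 (0.96 ± 0.11) and the retrieval receptor gene ERD2 (0.66 ± 0.10) rose. The other coat subunits SEC27 and SEC26 gave −0.60, −0.67 and −0.40 and −0.02, −0.11 and −0.14 in Δgcn2, against 0.60, 0.47 and 1.19 and 1.06, 1.14 and 1.17 in WT. The 3 WT values of both were above 0 and those of Δgcn2 below 0, with differences of −1.31 ± 0.17 (adjusted p = 0.000274) for SEC27 and −1.21 ± 0.13 (adjusted p = 0.000126) for SEC26. The response of SEC26 in Δgcn2 itself did not pass the test.

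Protein entry into the ER had 6 rising (26.1%) and 10 falling members (43.5%) of 23, close to the 25.2% and 37.8% of all elements, and 4 falling with each array scaled. The falls were led by SRP72 (−0.98 ± 0.11) of the signal recognition particle, and the rises by SPC2 (0.53 ± 0.11) of signal peptidase and SBH1 (0.52 ± 0.10) of the translocon. GPI anchor synthesis had 6 rises and 6 falls in 23 (26.1% each). GAA1, of the enzyme that attaches the anchor, had −0.59, −0.53 and −0.27 against 0.58, 0.32 and 0.63 in WT. In lipid synthesis, SCS3 (1.94 ± 0.14) rose along with INO1 and OPI3, and PIS1 (−0.97 ± 0.13) fell, with 5 rises and 8 falls in 22. The falls of this list numbered 4 without the second or the third Δgcn2 array, and with centered arrays it had 7 rises and 4 falls. HMG2 (1.65 ± 0.20), 1 of the isoenzymes of HMG-CoA reductase, was the 1 called rise among 23 sterol genes, 12 of which fell, while 5 rose with centered arrays.

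Outside the secretory pathway, nearly all genes of ribosome synthesis fell, where 37.8% of all elements fell and 25.2% rose. In ribosome biogenesis 70 of 71 elements fell and none rose, with a median of −1.10, and among the cytosolic ribosomal proteins 124 of 125 fell and none rose, with a median of −1.04. NOP13 (−1.40, −1.90 and −1.96), UTP23 (−1.38, −1.65 and −1.90), and MAK16 (−1.41, −1.79 and −1.64) led the first list. All 9 of these values were below −1. RPL7B, RPS26B (−1.80 ± 0.11), and RPL9A (−1.59 ± 0.10) led the second, which holds many near-identical gene copies whose signals may be shared. Of RNA polymerase I and III genes 23 of 25 fell, of translation factors 32 of 34, of aminoacyl-tRNA synthetases 16 of 19, and of histones 10 of 10. The respiratory chain fell in 33 of 37, with CYC1 (−1.94 ± 0.19), cytochrome c, and COX4 (−1.89 ± 0.10), a cytochrome oxidase subunit, lowest. None of these 5 lists had a rise.

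The depth of these falls differed from WT in 2 ways. The median of ribosome biogenesis was −1.10 in Δgcn2 and −0.664 in WT, and 28 of its 71 elements were lower than in WT by the test of the difference and none higher. Over all elements 6.24% were lower and 10.9% higher than in WT. Synthetases (medians of −0.75 and −0.372) and translation factors (−0.702 and −0.374) had 10 lower elements each and none higher. CDC60, leucyl-tRNA synthetase, gave −1.25, −1.40 and −1.14 in Δgcn2 and −0.57, −0.69 and −0.39 in WT, and NIP1, a subunit of the initiation factor eIF3, −1.03, −1.15 and −0.99 and −0.29, −0.34 and −0.29. The ranges of the strains did not overlap for either gene. The difference from WT was −0.71 ± 0.16 for CDC60 (adjusted p = 0.00829) and −0.75 ± 0.15 for NIP1 (adjusted p = 0.00444). Respiratory genes went the other way, with 11 higher and 1 lower of 37. Ribosomal proteins had 19 higher and 4 lower of 125, not far from the shares of all elements. These counts of list members against WT were not repeated under the alternatives.

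Genes of amino acid synthesis, the best known targets of Gcn4, mostly fell in Δgcn2, as they did in WT. Of 68 measured, 41 fell (60.3%, against 37.8% of all elements) and 4 rose (5.88%, against 25.2%). Falls numbered 43 in WT, 33 in Δgcn4, and 48 in Δire1. The median was −0.365 in Δgcn2, −0.503 in WT, −0.263 in Δgcn4, and −0.416 in Δire1. LEU9, of leucine synthesis, gave −1.54, −1.47 and −1.85, the glutamine synthetase gene GLN1 −1.43, −1.35 and −1.37, and ARG3, of arginine synthesis, −1.11, −1.09 and −1.47. These values all lay below −1. The highest of the 4 rises was that of the glutamate dehydrogenase gene GDH3, at 0.92 ± 0.12. Against WT 8 of 68 were higher and 3 lower, beside 10.9% and 6.24% of all elements. LEU9 was among the lower, with a difference of −0.84 ± 0.19 (adjusted p = 0.00888, and 0.0516 and 0.0503 without WT replicate 1 or the third Δgcn2 array).

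Sulfur assimilation and methionine synthesis had 7 rises and 12 falls in 28 in Δgcn2, and 1 rise and 19 falls in WT. The shares in Δgcn2, 25.0% and 42.9%, were close to those of all elements, 25.2% and 37.8%. By the difference, 9 were higher than in WT and none lower, against 10.9% and 6.24% of all elements. MET28, an activator of the sulfur genes, gave 0.40, 0.77 and 1.21 against −1.69, −0.90 and −0.43 in WT, a difference of 1.80 ± 0.36 (adjusted p = 0.00452). The number of rises in the list was 2 without the third Δgcn2 array, and the rise of MET28 then did not pass (adjusted p = 0.12). MET4 (0.84 ± 0.19), the partner of MET28, and MET30 (0.44 ± 0.10), its ubiquitin ligase subunit, rose, and SAM1 (−1.12 ± 0.14), of S-adenosylmethionine synthesis, fell.

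Of 30 genes of general stress and reserve carbohydrate 19 rose (63.3%, against 25.2% of all elements) and 2 fell (6.67%, against 37.8%). The median was 0.637, and 0.349 in WT. By the difference, 7 were higher and none lower than in WT, against 10.9% and 6.24% of all elements. DDR48 (1.72 ± 0.23), the glucokinase gene GLK1 (1.65 ± 0.16), and the phosphoglucomutase gene PGM2 (1.55 ± 0.15) were the highest, and YGP1 (−1.18, −1.59 and −1.67) fell. YGP1 had a mean of 0.40 in Δire1, and differed from it by −1.88 ± 0.18 (adjusted p = 3.36e-06). Of 27 cytosolic heat shock genes 13 rose and 7 fell, and 4 fell with centered arrays. The small heat shock protein gene HSP26 gave 1.89, 1.93 and 1.75 and SSE2, an Hsp70 partner, 1.93, 1.98 and 2.16, 6 values between 1.75 and 2.16, while HSP30 of the plasma membrane gave −1.82, −1.64 and −2.10. Of these 27 genes 14 were lower in Δgcn2 than in Δire1 and 2 higher, against 15.8% and 21.0% over all elements. In autophagy and vacuolar breakdown 11 of 21 elements rose, led by the vacuolar protease genes APE1 (1.90 ± 0.14), PRB1 (1.73 ± 0.16), and PEP4 (1.09 ± 0.11).

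In the thioredoxin, glutathione, and peroxide list 11 of 32 rose (34.4%, against 25.2% of all elements) and 8 fell (25.0%, against 37.8%), and 7 rose without the second Δgcn2 array. Against WT 9 of 32 were higher and none lower, beside 10.9% and 6.24% of all elements. GPX2 (1.50 ± 0.20), a glutathione peroxidase, rose most, and MXR1 (−1.38 ± 0.14), which repairs oxidized methionine, fell most. Cell wall genes rose and fell in nearly equal number, 15 and 13 of 34, with SVS1 (1.69 ± 0.18) and YPS1 (1.67 ± 0.16) after GSC2 at the top and TIP1 (−1.28, −1.10 and −2.14) at the bottom. Of the COS family 10 of 11 rose, with COS7 (1.45 ± 0.14) and COS8 (1.38 ± 0.09) after COS4. The cyclin list had 3 rises, PCL1 (1.58 ± 0.15), PCL2 (1.13 ± 0.12), and CLN2 (0.46 ± 0.10), all of G1 cyclins, and 17 falls in 29, among them the mitotic cyclin gene CLB1 (−1.55 ± 0.15) and FAR1 (−1.46 ± 0.09), an inhibitor of G1 cyclins. In a culture measured in bulk, fewer cells in a phase and less mRNA per cell cannot be told apart.

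In mating and pheromone response 7 of 23 (30.4%) rose and 9 (39.1%) fell, against 25.2% and 37.8% of all elements, and 4 rose without the third Δgcn2 array. MFA2 (−1.89 ± 0.11), a precursor of the a-factor pheromone, and STE2 (−1.78 ± 0.10) fell. STE2 is the receptor used by cells of mating type a, the mating type of all 4 strains. Zinc genes had 4 rises, led by the regulator ZAP1 (1.49 ± 0.20), and 6 falls, among them the zinc transporter gene ZRT1 (−1.15 ± 0.10), in 12. In purine synthesis IMD2 (−1.50 ± 0.19), of GMP synthesis, fell most of 20 genes, 10 of which fell and 2 rose. The proteasome had 7 rises and no fall in 33, but 3 rises without the third Δgcn2 array and 12 with centered arrays.

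**Figure D3:**
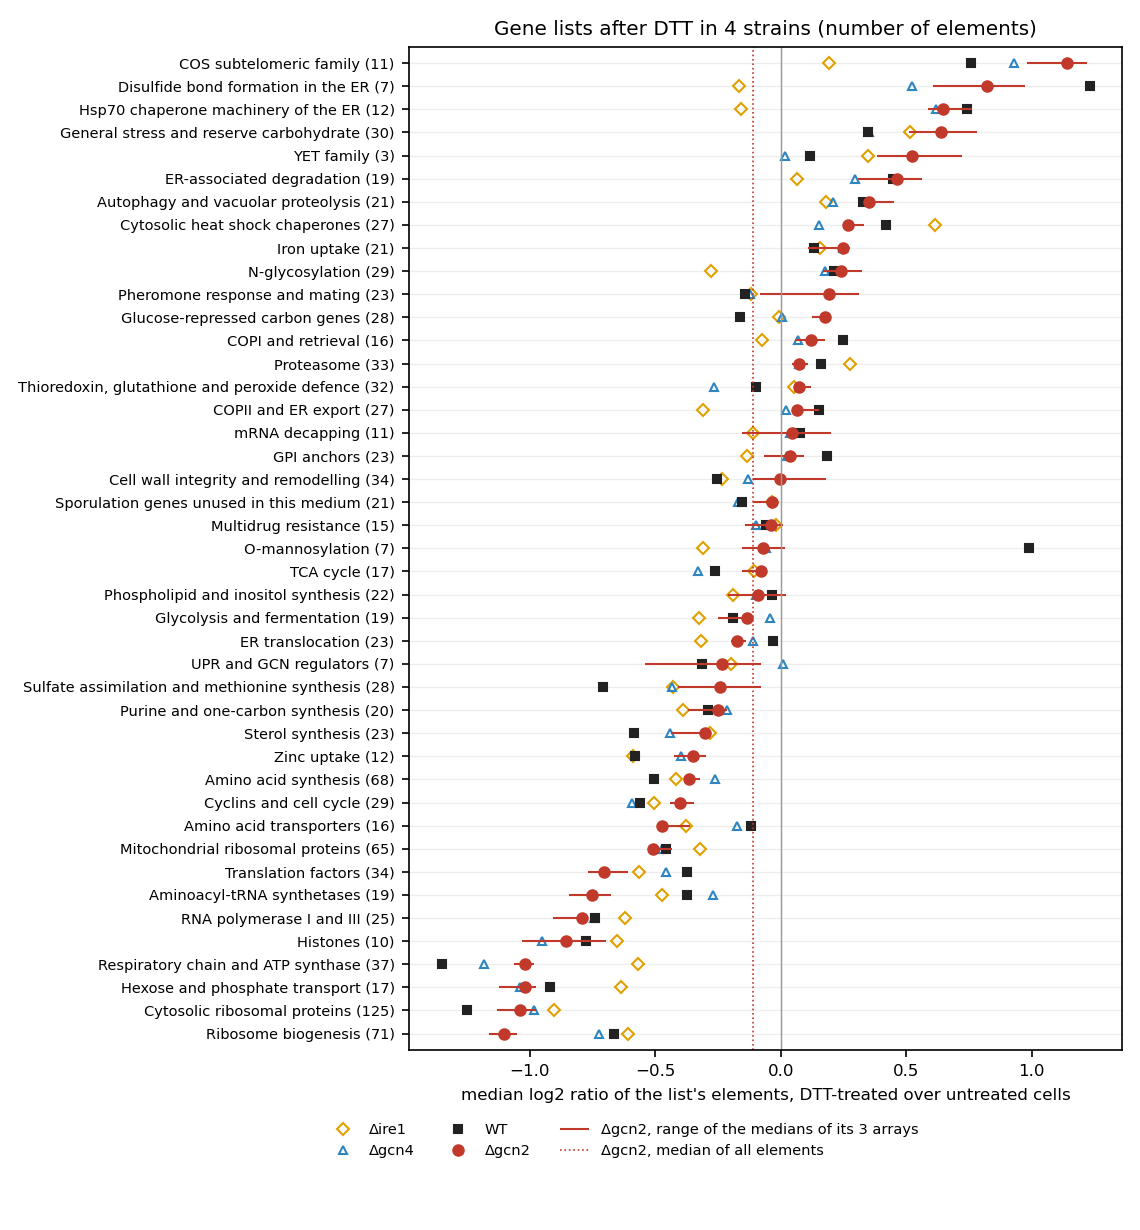
Median log2 ratio after DTT (x axis) of each of 43 gene lists, with the number of array elements in brackets. Red circles are Δgcn2, with a line for the range of the medians of its 3 arrays, and the other symbols are the medians of the 3-array means in WT, Δgcn4, and Δire1. Ribosome biogenesis is lowest in Δgcn2 at −1.10, and O-mannosylation is at 0.99 in WT and near 0 or below in the deletion strains.

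Glucose-repressed carbon genes had 12 rises and 7 falls in 28, with REG2 (1.91 ± 0.12), a regulator of glucose repression, and ADR1 after HXT5, and with HXT7 (−1.63 ± 0.15) lowest, whose near-identical neighbor HXT6 had −1.13 ± 0.16. Hexose and phosphate transport, with PHO3, PHO5, and PHO84, had 1 rise and 14 falls in 17 and a median of −1.02. Over all elements 25.2% rose and 37.8% fell. Iron uptake had 9 rises (42.9%) and 3 falls (14.3%) in 21. In mRNA decapping 4 rose and 4 fell of 11 (36.4% each), with EDC2 (0.86 ± 0.14) rising and DCP1 (−0.79 ± 0.12), a subunit of the decapping complex, falling. Mitochondrial ribosomal proteins had 2 rises and 46 falls in 65, and the TCA cycle 2 and 6 in 17 (11.8% and 35.3%). Glycolysis and fermentation had 3 and 9 in 19, amino acid transporters 2 and 10 in 16, and multidrug resistance 4 and 4 in 15 (26.7% each). The 3 members of the YET family rose, YET2 with 2.58, 2.46 and 2.79, YET1 with 0.38, 0.47 and 0.72, and YET3 with 0.37, 0.26 and 0.09, whose call was lost without the first or second array (adjusted p = 0.218 and 0.121). As a list of genes not used in this medium, 21 sporulation genes had 6 rises (28.6%) and 7 falls (33.3%) and a median of −0.0337, with 4 falls without the first or the second Δgcn2 array and 3 with centered arrays.

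Gene by gene, the response to DTT was higher in Δgcn2 than in WT for 657 elements (10.9%) and lower for 376 (6.24%). At least 1 on the log2 scale separated the strains for 62 and 29 of these. The replicate numbers pair the arrays of these strains, and with the number as a block on all 12 arrays the counts were 759 and 456. The same block on the 6 arrays of the 2 strains gave 1839 and 1192, but with 2 residual degrees of freedom that fit assigned all elements 1 common variance, so that these 2 counts do not weigh the spread of each gene. With each array centered the counts were 531 and 461, so that the share of higher calls went from 63.6% to 53.5%, and with each array scaled to one spread they were 279 and 251. Leaving out WT replicate 1 gave 260 and 182, and leaving out the third Δgcn2 array 257 and 182. The counts also moved by over 1.5 times without either of the other 2 Δgcn2 arrays.

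The largest difference above WT was that of THI5. The gene, which makes the pyrimidine part of thiamine, gave 1.85, 1.85 and 2.12 in Δgcn2 and −0.33, −0.13 and 0.72 in WT, a difference of 1.85 ± 0.23 (adjusted p = 0.000247). THI12 and THI11 were 1.64 ± 0.24 and 1.46 ± 0.26 above WT. These 3 genes are near-identical copies, so that their elements may share 1 signal. In Δgcn4 the mean of THI5 was 0.62 and in Δire1 −0.75. ADR1, an activator of glucose-repressed genes, gave 1.14, 0.98 and 1.51 against −0.61, −0.57 and −0.05 in WT, a difference of 1.62 ± 0.17 (adjusted p = 0.000126). HXT5 was 1.70 ± 0.32 above WT (adjusted p = 0.00323) and HSP26 1.41 ± 0.18 (adjusted p = 0.000296).

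Further differences above WT were 1.39 ± 0.26 for DDR2, 1.38 ± 0.19 for NQM1, a transaldolase paralog, and 1.33 ± 0.23 for DCS2, a regulator of the scavenging of mRNA caps. Of these 3, DDR2 also rose in Δire1, with a mean of 1.13. PRM5 (1.47 ± 0.39), NCW2 (1.40 ± 0.18), both of the cell surface, SKG3 (1.43 ± 0.22), PIN3 (1.42 ± 0.27), and ECO1 (1.39 ± 0.36), the acetyltransferase of cohesin, completed the 15 largest. The ECO1 values were spread widely, with 0.79, 1.88 and 1.60 in Δgcn2 and −0.83, 0.42 and 0.51 in WT. The calls of ECO1 and PRM5 were lost on leaving out WT replicate 1 (adjusted p = 0.0896 and 0.101) or the third Δgcn2 array (0.068 and 0.0902), among others. Of the genes with a printed promoter motif, EDC1 was 1.07 ± 0.20 (adjusted p = 0.00312), OPI3 0.78 ± 0.17 (0.00757), and TRK2 0.74 ± 0.16 (0.00738) above WT, the last 2 not past the test with each array scaled (0.0504 and 0.0878).

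Below WT, the largest difference was that of MGR1, a subunit of a mitochondrial protease. MGR1 gave −0.13, −0.29 and −0.11 in Δgcn2 and 1.69, 2.11 and 1.64 in WT, a difference of −1.99 ± 0.19 (adjusted p = 0.000126), and its means in Δgcn4 and Δire1 were −0.46 and −0.20. POF1 was −1.74 ± 0.19 from WT, with −0.79, −0.83 and −0.02 in Δgcn2. RRN9, of a factor that starts rRNA transcription, gave −1.93, −2.05 and −1.52 in Δgcn2 and −0.22, −0.40 and 0.17 in WT, a difference of −1.69 ± 0.19 (adjusted p = 0.000145). For all 3 genes the strains did not overlap, as the choice of this group required. YOL057W (−1.40 ± 0.16), a peptidase, RSC1 (−1.38 ± 0.16) of a chromatin remodeler, CTF18 (−1.31 ± 0.21) of sister chromatid cohesion, YLR464W (−1.21 ± 0.16), and YLR046C (−1.21 ± 0.17) were the other genes of this group besides HO, ARN2, and the secretory genes above.

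**Figure D4:**
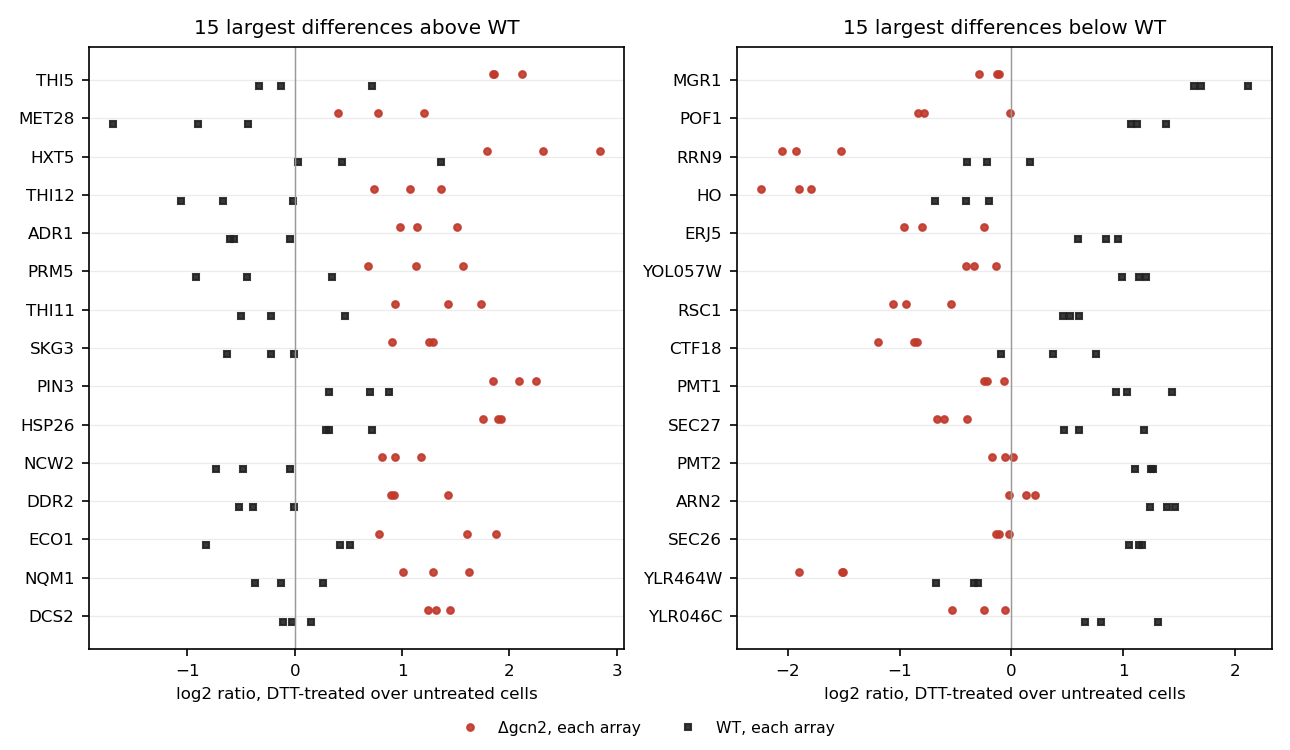
Log2 ratios after DTT (x axis) of the 15 genes with the largest difference above WT (left) and below WT (right), 1 row for each gene. Red circles are the 3 Δgcn2 arrays and black squares the 3 WT arrays, which do not overlap in any row, as the choice of these genes required. MGR1 has WT values from 1.64 to 2.11 and Δgcn2 values just below 0.

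ARN2 and HO differed between Δgcn2 and each of the 3 other strains, as did other named genes, ADR1 among them. ARN2, a transporter of iron siderophores, gave 0.13, 0.21 and −0.02 in Δgcn2, while its means were 1.36 in WT, 1.32 in Δgcn4, and 1.18 in Δire1. The differences were −1.26 ± 0.13 (adjusted p = 0.000126), −1.21 ± 0.13 (0.000821), and −1.07 ± 0.13 (4.74e-05). HO, the endonuclease of mating type switching, gave −1.79, −1.90 and −2.24, and means of −0.43, −0.61, and −0.48 in the other strains. Its differences were −1.55 ± 0.19 (adjusted p = 0.000224), −1.36 ± 0.19 (0.00319), and −1.50 ± 0.19 (5.13e-05). ARN2 and HO were picked from the largest differences after their values were seen.

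Gcn4 is the factor through which Gcn2 is best known to act, and the comparison with Δgcn4 had the fewest calls of the 3 comparisons with other strains. Of 6024 elements 268 (4.45%) were higher and 113 (1.88%) lower in Δgcn2 than in Δgcn4, and 37 and 6 by at least 1. With each array scaled to one spread 32 and 25 passed the test, and with centering alone 175 and 152, so that the share of higher calls went from 70.3% to 53.5%. Without the third Δgcn2 array the counts were 18 and 7. They fell by over 1.5 times also without either of the other Δgcn2 arrays or without the first or second Δgcn4 array. The largest differences above Δgcn4 were those of YPT53 (1.41 ± 0.31), a small GTPase of endosomes, NQM1 (1.35 ± 0.19), THI5 (1.32 ± 0.23), HXT5 (1.32 ± 0.32), DIA3 (1.31 ± 0.22), YPL247C (1.31 ± 0.36), ROQ1 (1.31 ± 0.22), HSP26 (1.30 ± 0.18), THI12 (1.27 ± 0.24), and DCS2 (1.24 ± 0.23). DIA3, an acid phosphatase relative, gave 0.94, 0.81 and 1.32 in Δgcn2 and −0.05, −0.57 and −0.25 in Δgcn4. NQM1, ROQ1, and HSP26 passed the test on leaving out any 1 array, and the other 7 missed the threshold without the third Δgcn2 array, with an adjusted p of 0.0513 to 0.169.

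Below Δgcn4, after HO and ARN2, came LEU9 with −1.20 ± 0.19 (adjusted p = 0.00556), where Δgcn4 gave −0.15, −0.31 and −0.81. DBP2 (−1.10 ± 0.21) and ROK1 (−0.85 ± 0.20) are RNA helicases, BCP1 (−1.02 ± 0.20) acts in ribosome export, and AAC3 (−0.97 ± 0.19) carries ADP and ATP across the mitochondrial membrane. IMD2 (−1.03 ± 0.27) and its close relative IMD3 (−0.84 ± 0.16) make the first step to GMP, and their elements may share signal. YDR222W (−0.94 ± 0.22) was the other gene of this group. It had 0.57 in Δire1, against −1.85 in Δgcn2. Without the third Δgcn2 array 7 of these 10 genes missed the threshold, and HO, ARN2, and LEU9 did not. With each array scaled to one spread 12 of the 20 differences from Δgcn4 given here missed it, with an adjusted p of 0.055 to 0.321.

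Against Δire1, the strain without the UPR sensor, 1266 elements (21.0%) were higher and 952 (15.8%) lower in Δgcn2, 280 and 99 by at least 1. In the disulfide list 6 of 7 were higher than in Δire1 and none lower, in the COS family 9 of 11 and none, in COPII 13 of 27 and none, in the chaperone list 7 of 12 and 1 lower, and in N-glycosylation 13 of 29 and 3. Other lists were lower in Δgcn2 than in Δire1, with 36 of 71 lower and none higher in ribosome biogenesis, 16 of 37 and none in the respiratory chain, and 21 of 65 lower and 7 higher among mitochondrial ribosomal proteins. COS4 was 5.17 ± 0.24 above Δire1 (adjusted p = 2.89e-09).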

How the data were processed

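Per the labels, each array compared DTT-treated with untreated cells of 1 strain in 2 colors. The authors deposited 1 log2 ratio of treated over untreated for each of 6024 elements and array, with no missing value. The image analysis, background correction and normalization behind these ratios are not given in the sources used here, and the array medians were not 0. The values were used as deposited. Symbols came from the platform annotation, updated through a RefSeq gene table for 5427 of 5432 named elements, and 592 elements were unnamed.

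A linear model with 1 mean for each strain was fitted to all 12 arrays with limma 3.58.1 in R 4.3.3, and variances were moderated (8 residual and 7.48 prior degrees of freedom). Strain means were tested against 0 and differences of Δgcn2 from each strain against 0, two-sided, with Benjamini-Hochberg adjustment over all elements, at 0.05. The fit was tested on simulated data. A ± gives the SE of the fit, for means of 3 arrays a strain, with the variance of each element pooled over all strains. The study describes its measurements as averages of 3 independent experiments, but the labels do not say that the cultures were separate, so p-values measure the spread between these arrays, which may be technical.

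Named genes were the 15 strongest rises and falls with the same sign on all arrays, all members of 5 folding, regulator, and YET lists, up to 3 rises and falls of each other list, and the largest differences from WT (15 each way) and Δgcn4 (10 each way) with arrays that do not overlap. BIR1 and TRK2 were added for their promoters, and other differences of named genes were picked after their values were seen. Members and lists were chosen with earlier results of these data known. Genes without an element here, IRE1 among them, were not analysed here.

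Alternatives were centering, centering and scaling, array weights, robust moderation, the arrays compared alone, leaving out each array, a minimum change of 1, and the replicate number as a block. The number pairs Δgcn2 with WT arrays: after removal of strain means, same-numbered arrays correlated at 0.574, 0.625, and 0.661, and others at −0.198 or below. WT replicate 1 has no number in its label and took it by elimination. Same-numbered arrays of Δgcn4 (0.0787 to 0.262) and Δire1 (−0.132 to −0.00104) gave lower values and were not taken as paired. Promoter sequences came from the oligonucleotide list of the study.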

Additional observations from a re-analysis of the deposited data

Results flagged for a closer look

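The results listed here are differences between strains under the same treatment that passed the test of the difference itself, an effect of DTT in Δgcn2 minus that in another strain on the log2 scale, fitted with limma on all 12 arrays. No spread within a strain was screened for single outlying arrays, since each strain has 3. Against WT 657 elements were higher and 376 lower, against Δgcn4 268 and 113, and against Δire1 1266 and 952.

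Among the named genes, the response in Δgcn2 was above that in WT for THI5 (1.85), MET28 (1.8), HXT5 (1.7), THI12 (1.64), ADR1 (1.62), PRM5 (1.47), THI11 (1.46), SKG3 (1.43), PIN3 (1.42), HSP26 (1.41), NCW2 (1.4), ECO1 (1.39), DDR2 (1.39), NQM1 (1.38), DCS2 (1.33), EDC1 (1.07), OPI3 (0.78), TRK2 (0.743), and MPD2 (0.501). It was below WT for MGR1 (−1.99), POF1 (−1.74), RRN9 (−1.68), HO (−1.55), ERJ5 (−1.47), YOL057W (−1.4), RSC1 (−1.38), SEC27 (−1.31), PMT1 (−1.31), CTF18 (−1.31), PMT2 (−1.27), ARN2 (−1.26), YLR464W (−1.21), SEC26 (−1.21), YLR046C (−1.21), LHS1 (−1.09), EUG1 (−0.884), LEU9 (−0.836), SIL1 (−0.787), NIP1 (−0.75), CDC60 (−0.711), ERO1 (−0.652), TRL1 (−0.54), PMT5 (−0.53), and MPD1 (−0.514). The 15 largest in each direction had been selected for size and for arrays that do not overlap, so that their sizes are those of the extremes.

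Against Δgcn4 the response was higher for YPT53 (1.41), NQM1 (1.35), HXT5 (1.32), THI5 (1.32), YPL247C (1.31), ROQ1 (1.31), DIA3 (1.31), HSP26 (1.3), THI12 (1.27), and DCS2 (1.24), and lower for HO (−1.36), ARN2 (−1.21), LEU9 (−1.2), DBP2 (−1.1), IMD2 (−1.03), BCP1 (−1.02), AAC3 (−0.965), YDR222W (−0.941), ROK1 (−0.85), and IMD3 (−0.838). Of the differences from Δire1 with a size given above, those called were higher for COS4 (5.17) and lower for CWH41 (−2.88), RPI1 (−2.27), YRO2 (−2.2), YGP1 (−1.88), HO (−1.5), and ARN2 (−1.07).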

How the results depend on the processing

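The counts of elements that rose or fell in Δgcn2 stayed within 1.5 times of 1520 and 2280 under every alternative but a minimum change of 1 on the log2 scale, which left 293 and 447. They ran from 1186 to 1910 and from 1660 to 2593, and from 1186 to 1318 and from 1899 to 1994 on leaving out 1 Δgcn2 array. With the replicate number as a block on all 12 arrays they were 1576 and 2353. That minimum left 62 and 29 elements higher and lower than in WT, 37 and 6 against Δgcn4, and 280 and 99 against Δire1. All other counts against Δire1 stayed within 1.5 times.

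Against WT, higher elements numbered 279 with each array centered and scaled to one spread and 1003 with array weights, and lower elements 577 with array weights. Leaving out 1 array gave 257 to 612 and 177 to 332. These were 414 and 248, 316 and 177, and 257 and 182 without Δgcn2 replicate 1, 2, or 3, and 260 and 182 without WT replicate 1. Against Δgcn4, higher elements numbered 175 with centering, 32 with scaling, and 541 with weights, and lower elements 25 with scaling and 240 with weights. Leaving out 1 array gave 18 to 240 and 7 to 93. These were 103 and 35, 65 and 25, and 18 and 7 without Δgcn2 replicate 1, 2, or 3, and 79 and 33, and 76 and 37, without Δgcn4 replicate 1 or 2. The cause of these shifts was not tested.

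With the replicate number as a block on the arrays of 2 strains alone the counts were 1839 and 1192 against WT, where all elements were given 1 common variance, and 642 and 296 against Δgcn4, whose numbers do not pair with those of Δgcn2. With the block on all 12 arrays they were 759 and 456, and 400 and 166. This block changed no call of a named gene except to add that of DHH1 against WT and that of SEC63. HAC1 differed from WT with weights (adjusted p = 0.00774) and with the arrays of these 2 strains alone (adjusted p = 0.000316).

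No called value of a named gene changed its sign. Of 137 called log2 ratios 132 passed the test under all alternatives applied to single genes, and of 71 called differences 46 did. The minimum change of 1 was applied to the counts of elements only. Values with no call that changed sign with centering, and with scaling too, were those of CPR5 (0.045 and 0.038), PMT2 (0.036 and 0.027), PMT7 (0.010 and 0.010), GCN20 (0.071 and 0.060), and SEC26 (0.018 and 0.019). On leaving out 1 Δgcn2 array GCN20 ran from −0.0905 to 0.0255 (without replicate 3 and 2) and PMT6 from −0.057 to 0.201. The difference from Δire1 was −0.82 for SSA4 and 0.25 for PHO11 with scaling, and ran from −0.23 to 0.23 for SSA4 on leaving out 1 array. Among counts of list members, falls in amino acid synthesis went from 41 to 27 and in the TCA cycle from 6 to 3 with scaling, and rises in amino acid synthesis from 4 to 2 without Δgcn2 replicate 3. In N-glycosylation falls went from 4 to 2 without replicate 2. The median of the cell wall list was −0.00267, and 0.103 with centering. With 3 arrays a strain and no spot signals, differences that are small against the SE of an element may have been missed.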
